A study of Mus musculus with 6 samples.

Results

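The 47 chromatin modifier and remodeller genes described here encode enzymes and core subunits that act on histones, nucleosomes and DNA methylation. They were chosen by name in 10 roles, with earlier results of these data known, and they are 47 of the 55471 gene IDs measured. All 47 were among the 12546 genes that passed the filter on low counts. RNA was sequenced from 6 libraries of OT-I CD8+ T cells, which carry a T cell receptor against an ovalbumin peptide and a Cas9 knock-in that is active in all cells. The cells were transduced with a lentiviral vector holding a CD90.1 reporter and 1 guide, either against Elovl1 (sgElovl1, 3 libraries) or non-targeting (sgNT, 3 libraries), and were given by tail vein to young adult mice with orthotopic tumours of KPC_OVA, a mouse pancreatic cancer line that expresses ovalbumin. Mice of both groups were treated with anti-PD-1 from the day after transfer, and CD90.1+ cells were sorted from the primary tumour 7 days after transfer. Cells of different mice were kept apart, except that sgElovl1 replicates 1 and 2 were each pooled from 2 tumours. The sorted cells are a mixed population of edited cells and not a knockout clone. The comparison of the groups asks which of the 47 transcripts differ when the elongase Elovl1 is targeted in T cells within the tumour.

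Chromatin regulators set which genes a T cell can use. Methyltransferases of the KMT2 and SET1 families mark promoters and enhancers on lysine 4 of histone H3, p300 and CBP acetylate histones at enhancers, and SWI/SNF, CHD, BAZ and ATRX proteins move or exchange nucleosomes with the energy of ATP. Polycomb repressive complex 2 (PRC2) and DNA methyltransferases silence genes. TET enzymes oxidise methylated DNA, and histone demethylases remove methyl marks of active or of silent genes. In CD8+ T cells, enzymes of this kind, among them Tet2, Dnmt3a and Ezh2, are known to shape the choice between effector, memory and exhausted states.

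The 47 genes shifted towards higher levels in sgElovl1 cells. Since the list was drawn up with earlier results of these data known, the shares below are a description. In edgeR's quasi-likelihood test with Benjamini-Hochberg adjustment over all genes tested, 15 of the 47 (31.9%) were called higher at an adjusted p under 0.05 and 0 were called lower. Of all genes tested, 8.64% were called higher and 5.13% lower. Members are long, and at the shares of non-members of like transcript length, described below, 6.94 of the 47 would be called higher and 1.31 lower. The largest called differences were those of the H3K4 methyltransferases Kmt2d and Kmt2c and of the H3K36 methyltransferase Ash1l, each above 1 on the log2 scale. The median log2 fold change of sgElovl1 over sgNT was 0.39 over the 47 genes and -0.0041 over all genes tested, and 41 of the 47 were above 0. In 27 members (57.4%) every sgElovl1 library was above every sgNT library, against 19.4% of all genes, and in 3 (6.38%) every sgElovl1 library was below, against 17.7%. At an unadjusted p under 0.05, 25 members were higher and 2 (Arid1a and Hdac2) were lower. No share of all genes is given here at that threshold, so these counts are no result about the members. DESeq2 called 19 higher and 0 lower, against 9.64% and 8.06% of all genes that it tested, and limma-voom called 15 higher and 0 lower, against 8.57% and 4.74%.

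**Figure D1:**
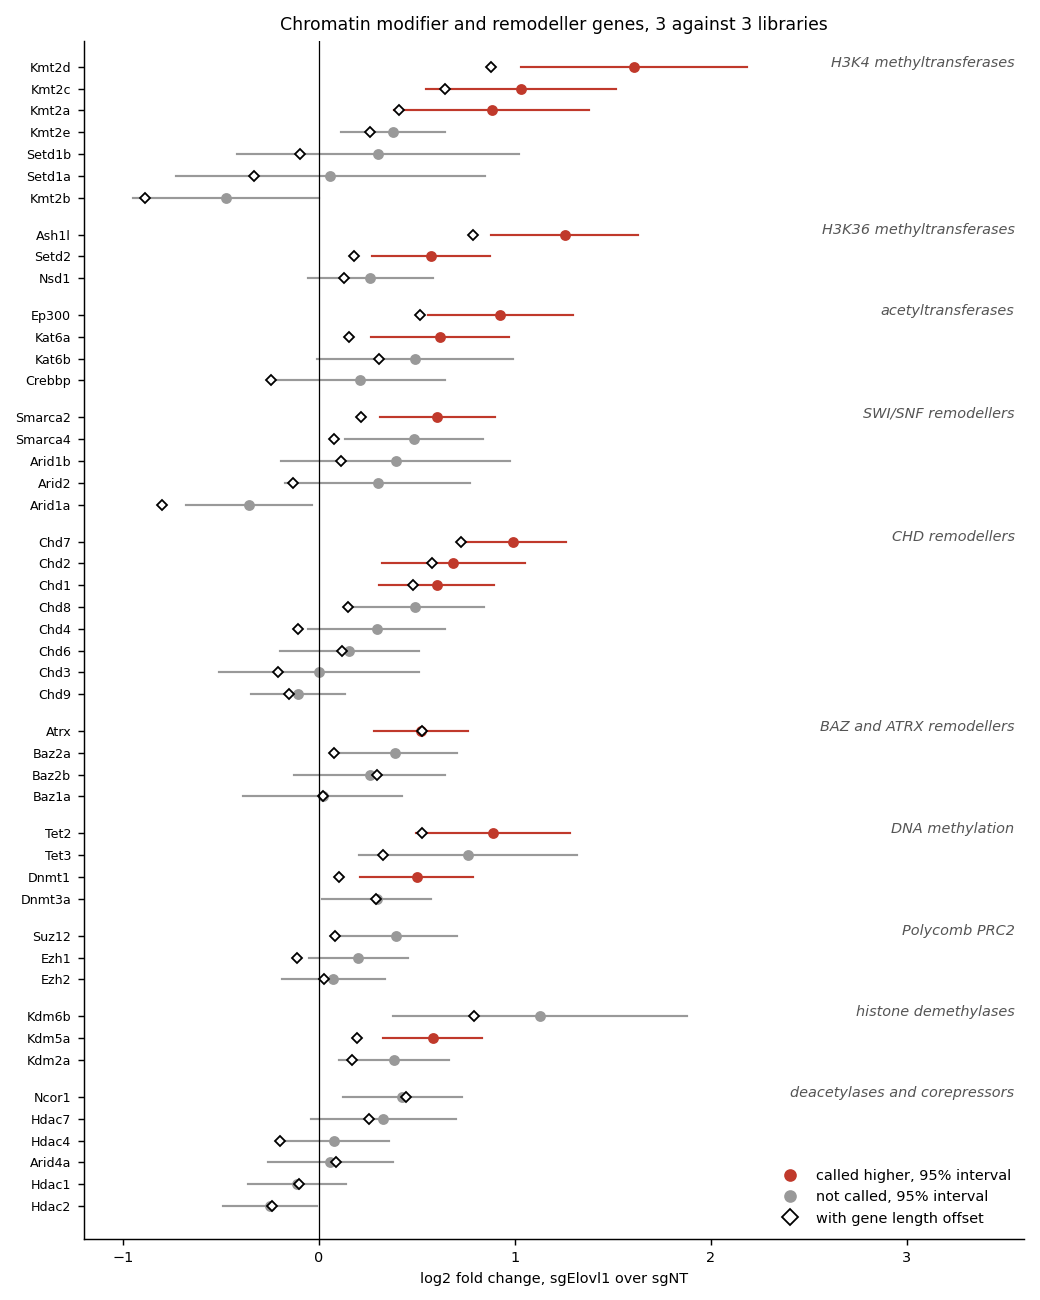
Log2 fold change of sgElovl1 over sgNT (horizontal axis) for the 47 genes by role. Circles and bars give the edgeR estimate and its 95% interval, red for the 15 genes called higher and grey for the rest, and white diamonds give the estimate after a correction for transcript length described below. Most circles lie right of 0, and most diamonds lie left of their circle.

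Elovl1 was at 81.5, 76.6 and 95.4 CPM (counts scaled to a common library size by TMM) in the sgElovl1 libraries and at 283, 279.6 and 255 CPM in the sgNT libraries (log2 fold change -1.69, SE 0.12, edgeR adjusted p = 8.7e-05). Total expected counts ran from 21980273 to 26165380. Summed CD8 T cell markers stood at 13178 to 14853 CPM in sgElovl1 and at 16397 to 16841 CPM in sgNT, with 3 of 10 called lower and 1 higher. Macrophage and monocyte markers summed to 1391 to 1825 CPM in sgElovl1 and to 766 to 1428 CPM in sgNT, with overlap. Without Ly6c2, which CD8+ T cells also express, the sums were 375 to 552 CPM and 193 to 243 CPM. Of these, Ccr2 held 230 to 274 CPM in sgElovl1 and 131 to 199 CPM in sgNT. Lyz2 held 53.7 to 159 CPM in sgElovl1 and 1.06 to 14.0 CPM in sgNT (not called), so both genes make up much of the gap. In that list 3 of 11 tested markers were called higher, and Adgre1 was at 0 in every sgNT library. Cd68 went the other way, with means of 32.0 CPM in sgElovl1 and 40.4 CPM in sgNT (not called). Tumour epithelium markers summed to 336 and 1084 CPM in the third libraries of sgElovl1 and sgNT and to 35.3 to 53.8 CPM in the other 4. Acinar markers summed to 13.1 to 23.0 CPM with 1 of 4 tested called lower, B cell markers to 6.01 to 9.07 CPM with 0 of 1 called, and of the fibroblast markers, at 0.0385 to 0.510 CPM in all, none passed the filter. In bulk RNA, fewer cells of a type and less RNA per cell cannot be told apart, and the part of other cells in the values below was not tested. Without the third library of both groups, 21 members were called higher (15.4% of all genes) and 1, the remodeller subunit Baz1a, lower (16.1% of all genes).

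The number of members called depended on single libraries. Without sgElovl1 replicate 1, 7 members were called higher (2.95% of all genes), without sgElovl1 replicate 2, 4 (2.15%), and without sgNT replicate 2, 5 (2.55%). Only Ash1l and Chd7 passed the threshold whichever single library was left out. The leave-out values of the others stand with each gene below. Leaving out sgElovl1 replicate 3, alone or with sgNT replicate 3, sets only libraries pooled from 2 tumours against sgNT libraries of 1 tumour each.

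Among the 7 genes listed as methyltransferases of histone H3 lysine 4, 3 were higher in sgElovl1 cells. Gene coordinates, given once for each called member, are those of GENCODE M21 on GRCm38 (mm10). Kmt2d (chr15:98831669-98871204), a main enhancer methyltransferase, was at 33.3, 24.8 and 15.2 CPM in sgElovl1 replicates 1 to 3 and at 8.73, 7.13 and 8.15 CPM in sgNT replicates 1 to 3. The highest sgNT library was well below the lowest sgElovl1 library, but the sgElovl1 libraries themselves differed by more than their lowest value. The log2 fold change was 1.61, SE 0.26, edgeR adjusted p = 0.00571. Kmt2c (chr5:25271798-25498783), its closest relative, was at 27.9, 24.5 and 26.5 CPM in sgElovl1 and at 17.2, 12.9 and 8.53 CPM in sgNT (log2 fold change 1.03, SE 0.22, edgeR adjusted p = 0.0153). Here the sgNT libraries varied and the sgElovl1 libraries lay close together. Kmt2a (chr9:44803355-44881296), which maintains the activity of developmental genes, was at 36, 32.7 and 23.6 CPM in sgElovl1 and 21.3, 16.8 and 12.0 CPM in sgNT (log2 fold change 0.88, SE 0.22, edgeR adjusted p = 0.0313), and the groups lay close to each other, since sgElovl1 replicate 3 was only just above sgNT replicate 1. Of the other 4, Kmt2e, by TPM (the deposited level per transcript length) the most abundant of the role, gave a log2 fold change of 0.38 without overlap (adjusted p = 0.0587). Kmt2b, the nearest relative of Kmt2a, gave a log2 fold change of -0.47 with every sgElovl1 library below every sgNT library (adjusted p = 0.157). The SET1 enzymes Setd1a and Setd1b were at 0.06 and 0.30 (adjusted p = 0.93 and 0.556) with 28 to 72 and 33 to 63 counts a library, so that a difference of this size was not detectable at this depth. The call of Kmt2a was lost on leaving out either of sgElovl1 replicates 1 and 2 or sgNT replicate 2 or 3 (adjusted p = 0.0569 to 0.144), that of Kmt2c without either of sgElovl1 replicates 1 and 2 or without sgNT replicate 2 (0.0725 to 0.0883), and that of Kmt2d without sgNT replicate 2 (0.0626).

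The promoter windows of RefSeq (GRCm38.p6, 250 bases before to 50 after the annotated start) were read for the members that have them, 42 windows of 30 genes. The member windows were rich in GC. Their median GC content was 69.7%, against 52.7% in all 32851 windows, and the ratio of observed to expected CpG was 0.85, against 0.384. The GC box GGGCGG, searched on both strands, was found in 30 of the 42 member windows (71.4%) and in 35.7% of all windows. The CCAAT box was found in 28.6% of member and 37.4% of all windows, the ETS core GGAAG in 61.9% and 71.4%, and TATAAA in 2.38% and 13.6%. Each motif was counted on its own, and matches may share letters. The set of all windows was not limited to genes that passed the filter on low counts, as the members did. These contrasts are therefore not shown to be particular to the members. The windows of Kmt2d and Kmt2a, the H3K4 methyltransferases with the largest and a smaller called difference, are shown because they hold 4 and 5 GC boxes, in capitals, and no CCAAT box. Kmt2d starts on the minus strand at chr15:98871156-98871455 and Kmt2a on the minus strand at chr9:44881240-44881539.
Kmt2d: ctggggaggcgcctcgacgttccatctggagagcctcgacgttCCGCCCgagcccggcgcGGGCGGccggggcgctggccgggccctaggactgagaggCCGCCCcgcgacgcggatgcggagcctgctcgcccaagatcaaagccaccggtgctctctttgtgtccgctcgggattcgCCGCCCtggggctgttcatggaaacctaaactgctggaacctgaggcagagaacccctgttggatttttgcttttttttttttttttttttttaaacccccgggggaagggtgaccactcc
Kmt2a: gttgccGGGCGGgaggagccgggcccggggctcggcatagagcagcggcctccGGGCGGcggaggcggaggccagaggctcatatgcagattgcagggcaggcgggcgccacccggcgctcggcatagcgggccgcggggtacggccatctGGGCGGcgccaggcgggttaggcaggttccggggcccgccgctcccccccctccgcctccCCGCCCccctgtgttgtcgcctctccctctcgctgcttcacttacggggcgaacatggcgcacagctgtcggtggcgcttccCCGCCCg

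Of the 3 H3K36 methyltransferases, Ash1l and Setd2 were higher. Ash1l (chr3:88950622-89079375), which places dimethylation linked to active developmental genes, was at 43.4, 40.7 and 39.2 CPM in sgElovl1 and at 22.4, 14.0 and 15.4 CPM in sgNT (log2 fold change 1.25, SE 0.17, edgeR adjusted p = 0.00206). The 3 sgElovl1 libraries were nearly equal, and the sgNT libraries all lay far below. Setd2 (chr9:110532597-110618633), the enzyme that trimethylates lysine 36 behind the polymerase, was at 19.5, 20.1 and 18.2 CPM in sgElovl1 and 13.7, 13.2 and 12.1 CPM in sgNT (log2 fold change 0.57, SE 0.14, edgeR adjusted p = 0.0218), a small difference with tight groups. Nsd1 overlapped between the groups, with a log2 fold change of 0.26 (adjusted p = 0.238). The call of Setd2 was lost without either of sgElovl1 replicates 1 and 2 or without sgNT replicate 2 or 3 (adjusted p = 0.0531 to 0.127).

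The acetyltransferases all had positive log2 fold changes, and Ep300 and Kat6a passed the test. Ep300 (chr15:81585351-81652077), which encodes p300, was at 27.3, 21.5 and 20.4 CPM in sgElovl1 and at 14.3, 11.4 and 10.8 CPM in sgNT (log2 fold change 0.93, SE 0.17, edgeR adjusted p = 0.00692). The lowest sgElovl1 library stood above the highest sgNT library by more than the range within sgNT. Kat6a (chr8:22859535-22943259), a MYST family acetyltransferase, was at 25.8, 24.6 and 18.5 CPM in sgElovl1 and 13.7, 14.5 and 16.6 CPM in sgNT (log2 fold change 0.62, SE 0.16, edgeR adjusted p = 0.03), and sgElovl1 replicate 3 lay nearer to the sgNT libraries than to its own group. Its call was lost with the replicate number as a block (edgeR adjusted p = 0.051). Its relative Kat6b gave a log2 fold change of 0.49 without overlap (adjusted p = 0.161), and Crebbp, which encodes CBP, the partner of p300, one of 0.21 with overlap (adjusted p = 0.485). Ep300 lost its call without sgNT replicate 2 (adjusted p = 0.0566), and Kat6a without either of sgElovl1 replicates 1 and 2 or without sgNT replicate 1 or 2 (0.101 to 0.144). The starts of this pair, of which Ep300 was called and Crebbp was not, are shown side by side. Ep300 lies on the plus strand at chr15:81585964-81586263 and Crebbp on the minus strand at chr16:4213355-4213654. With GC boxes again in capitals, Ep300 has 1 and Crebbp has 2 that share letters, and neither window has a CCAAT box.
Ep300: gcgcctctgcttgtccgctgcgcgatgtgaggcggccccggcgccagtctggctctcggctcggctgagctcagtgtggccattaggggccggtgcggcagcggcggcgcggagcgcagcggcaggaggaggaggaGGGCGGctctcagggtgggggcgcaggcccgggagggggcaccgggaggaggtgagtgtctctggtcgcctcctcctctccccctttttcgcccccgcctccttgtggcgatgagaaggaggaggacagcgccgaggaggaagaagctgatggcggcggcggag
Crebbp: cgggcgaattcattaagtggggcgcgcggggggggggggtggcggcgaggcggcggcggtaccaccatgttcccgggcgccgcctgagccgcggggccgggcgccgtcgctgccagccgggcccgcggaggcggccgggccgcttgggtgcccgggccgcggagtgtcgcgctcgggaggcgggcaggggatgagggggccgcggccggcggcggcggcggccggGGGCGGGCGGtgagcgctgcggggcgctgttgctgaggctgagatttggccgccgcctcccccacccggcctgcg

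Of the 5 SWI/SNF genes 1 was called. Smarca2 (chr19:26605050-26778322), the BRM ATPase, was at 25.6, 28.3 and 23.8 CPM in sgElovl1 and at 18.7, 16.2 and 16.3 CPM in sgNT (log2 fold change 0.60, SE 0.13, edgeR adjusted p = 0.0164). Its groups were clearly apart, with the lowest sgElovl1 library above the highest sgNT library. Smarca4, the BRG1 ATPase, was at 60.8, 58.5 and 39.3 CPM in sgElovl1 and 34.3, 39.8 and 39.4 CPM in sgNT (log2 fold change 0.48, SE 0.16, edgeR adjusted p = 0.0667), and sgElovl1 replicate 3 fell within the sgNT range. Without that library the adjusted p of Smarca4 was 0.00682. The subunits that direct the complex differed in sign. Arid1a gave a log2 fold change of -0.36 with every sgElovl1 library below every sgNT library (adjusted p = 0.12), and Arid1b and Arid2 had 0.39 and 0.30 with overlap (adjusted p = 0.332 and 0.359). Arid1b passed without sgElovl1 replicate 3 (adjusted p = 0.0283), and Smarca2 lost its call without either of sgElovl1 replicates 1 and 2 or without sgNT replicate 2 (0.0632 to 0.109).

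Of the 8 CHD remodellers, Chd1, Chd2 and Chd7 were higher. Chd7 (chr4:8690406-8867659), which binds active enhancers, was at 129.7, 133 and 114 CPM in sgElovl1 and at 71.8, 59.1 and 58.9 CPM in sgNT (log2 fold change 0.99, SE 0.12, edgeR adjusted p = 0.0016). All 3 sgElovl1 libraries were far above all sgNT libraries. Chd1 (chr17:15704967-15772610), a remodeller that travels with elongating polymerase, was at 42.6, 39.9 and 42.9 CPM in sgElovl1 and 31.6, 23.1 and 27.9 CPM in sgNT (log2 fold change 0.60, SE 0.13, edgeR adjusted p = 0.0162). Chd2 (chr7:73426638-73541830), of the same subfamily, was at 61.6, 62.5 and 91.4 CPM in sgElovl1 and 45.5, 38.9 and 49.7 CPM in sgNT (log2 fold change 0.69, SE 0.17, edgeR adjusted p = 0.0234), with sgElovl1 replicate 3 far above the other libraries of its group. Its exons overlap those of another annotated gene on the same strand, so its counts are uncertain. Chd8 gave a log2 fold change of 0.49 without overlap (adjusted p = 0.0658), and Chd3, Chd4, Chd6 and Chd9, which all overlapped between the groups, lay between -0.11 and 0.29 (adjusted p = 0.222 to 0.997). Chd4, the NuRD ATPase, passed without sgElovl1 replicate 3 (adjusted p = 0.0439). The call of Chd1 was lost without either of sgElovl1 replicates 1 and 2 or without sgNT replicate 2 (adjusted p = 0.0697 to 0.0741), and that of Chd2 without sgElovl1 replicate 2 or sgNT replicate 1 or 2 (0.06 to 0.103).

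The BAZ and ATRX remodellers contributed 1 called gene. Atrx (chrX:105797615-105929403), which with Daxx deposits histone H3.3 in heterochromatin, was at 169.8, 162 and 161 CPM in sgElovl1 and at 122, 117 and 104 CPM in sgNT (log2 fold change 0.52, SE 0.11, edgeR adjusted p = 0.0136). The spread within each group was small against the gap between them. Baz2a, a subunit that silences ribosomal DNA repeats, was at 27.3, 29.0 and 25.3 CPM in sgElovl1 and 24.6, 19.5 and 18.4 CPM in sgNT (log2 fold change 0.39, SE 0.14, edgeR adjusted p = 0.0937), and its groups met without overlapping. Baz2b and Baz1a had log2 fold changes of 0.26 and 0.02 (adjusted p = 0.332 and 0.959). The value of Baz1a changed sign without sgElovl1 replicate 3, without sgNT replicate 3 and without both, and in the last case it was called lower (log2 fold change -0.27, adjusted p = 0.0493). The call of Atrx was lost without either of sgElovl1 replicates 1 and 2 or without sgNT replicate 2 (adjusted p = 0.0569 to 0.0754).

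All 4 genes of DNA methylation were higher in every sgElovl1 library than in any sgNT library, and 2 were called. Tet2 (chr3:133463679-133545139), which oxidises methylcytosine, was at 42.7, 44.0 and 46.0 CPM in sgElovl1 and at 30.6, 17.4 and 23.6 CPM in sgNT (log2 fold change 0.89, SE 0.18, edgeR adjusted p = 0.0119). The sgElovl1 libraries were nearly equal and the sgNT libraries spread widely below them. Dnmt1 (chr9:20907209-20959888), the methyltransferase that copies methylation after replication, was at 81.5, 92.0 and 76.1 CPM in sgElovl1 and 51.8, 67.4 and 57.5 CPM in sgNT (log2 fold change 0.50, SE 0.13, edgeR adjusted p = 0.031). For Tet3 the log2 fold change was 0.76 (adjusted p = 0.0671), and leaving out sgElovl1 replicate 3 gave an adjusted p of 0.0126. Dnmt3a, the de novo methyltransferase, was at 0.29 (adjusted p = 0.138). Thus an oxidising and a methylating enzyme were both among the called genes. The call of Tet2 was lost without sgElovl1 replicate 2 (adjusted p = 0.0674), and that of Dnmt1 without either of sgElovl1 replicates 1 and 2 or without sgNT replicate 1 or 3 (0.0621 to 0.161).

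None of the 3 PRC2 genes passed the test. Suz12, the scaffold subunit, was at 42.9, 46.8 and 47.9 CPM in sgElovl1 and at 37.0, 39.9 and 27.7 CPM in sgNT (log2 fold change 0.39, SE 0.14, edgeR adjusted p = 0.0818), without overlap between the groups. Ezh1, the catalytic subunit of resting cells, was at 58.9, 58.1 and 62.2 CPM in sgElovl1 and 45.7, 54.6 and 55.6 CPM in sgNT (log2 fold change 0.20, SE 0.12, edgeR adjusted p = 0.254), also without overlap. Ezh2, the catalytic subunit of dividing cells, gave a log2 fold change of 0.07 with a 95% interval from -0.19 to 0.33 (adjusted p = 0.708), and its groups overlapped.

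Every histone demethylase was higher in all sgElovl1 libraries than in any sgNT library, and 1 of the 3 was called. Kdm5a (chr6:120364124-120444574), which removes H3K4 methylation, was at 69.8, 72.4 and 70.0 CPM in sgElovl1 and at 51.6, 48.5 and 41.8 CPM in sgNT (log2 fold change 0.58, SE 0.12, edgeR adjusted p = 0.0108). Its sgElovl1 libraries differed by only a few CPM. Kdm6b, which removes the mark of PRC2, was at 14.6, 8.56 and 5.17 CPM in sgElovl1 and 4.52, 3.63 and 4.84 CPM in sgNT (log2 fold change 1.13, SE 0.34, edgeR adjusted p = 0.0519), and sgElovl1 replicate 3 lay close to the sgNT libraries while replicate 1 was far above. Without sgElovl1 replicate 3 the adjusted p of Kdm6b was 0.00874. Kdm2a, an H3K36 demethylase, gave a log2 fold change of 0.38 (adjusted p = 0.0665). Kdm5a lost its call without sgElovl1 replicate 2 (adjusted p = 0.0706).

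Among deacetylases and corepressors no gene passed the test, and this role had the lowest median log2 fold change of the 10 (0.07). Ncor1, the scaffold that tethers Hdac3 to repressed genes, was at 189.6, 202 and 245 CPM in sgElovl1 and at 181, 155 and 137 CPM in sgNT (log2 fold change 0.43, SE 0.14, edgeR adjusted p = 0.0619), without overlap. Hdac2, a class I deacetylase, was at 128, 129 and 125 CPM in sgElovl1 and 139.9, 166 and 148 CPM in sgNT (log2 fold change -0.25, SE 0.11, edgeR adjusted p = 0.14), with every sgElovl1 library below every sgNT library. Hdac1, its relative and by TPM the most abundant of the 47 genes at 305 ± 14.4 TPM in sgElovl1 and 306 ± 22.1 TPM in sgNT (SD, n = 3), gave a log2 fold change of counts of -0.11 (adjusted p = 0.524). The class IIa deacetylases Hdac4 and Hdac7 were at 0.08 and 0.33 and the corepressor subunit Arid4a at 0.06 (adjusted p = 0.201 to 0.815), all with overlap. Hdac7 passed without sgElovl1 replicate 3 (adjusted p = 0.0144). Exons of Hdac4 overlap another gene on the opposite strand over a long stretch, so its value is uncertain.

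**Figure D2:**
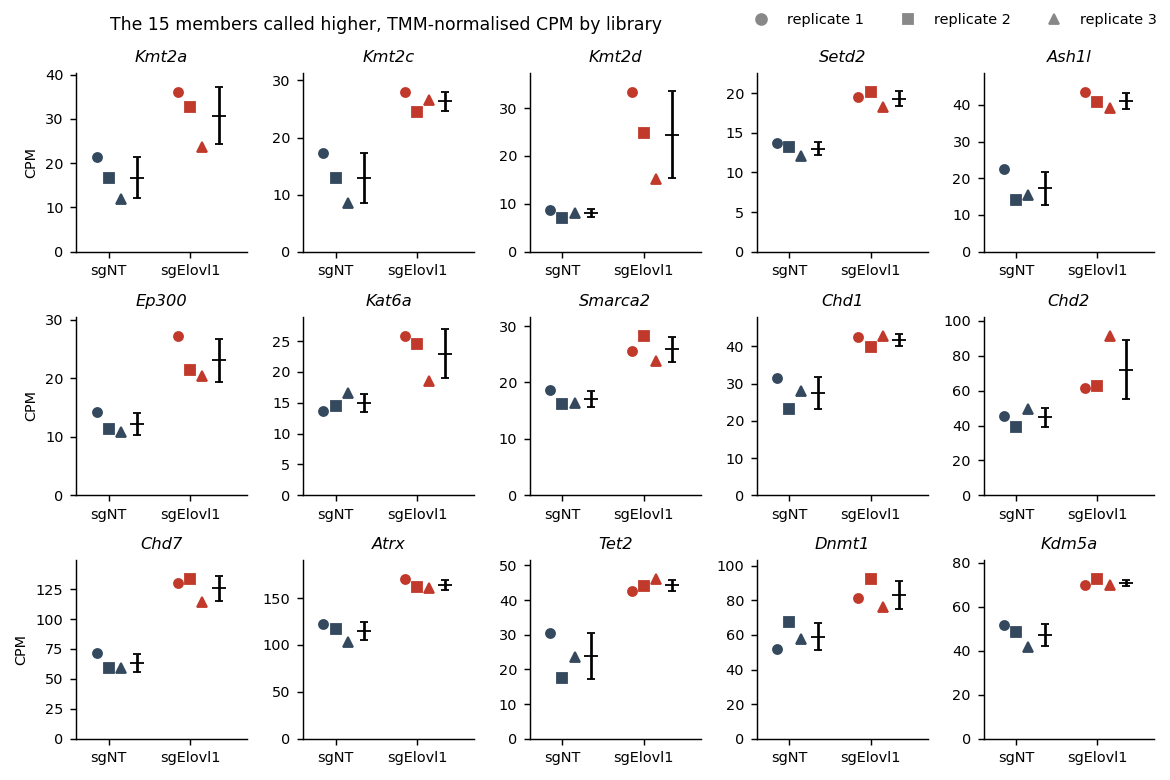
TMM-normalised CPM (vertical axes, from 0) of the 15 genes called higher in the 3 sgNT and 3 sgElovl1 libraries. Symbols mark replicates 1 to 3 and black bars the mean and SD of a group. In each panel the 3 sgElovl1 libraries lie above the 3 sgNT libraries, and Kmt2d, Chd2 and Kmt2a have the widest spread within sgElovl1 for their level.

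Levels per length ranged widely between members. In sgNT cells 28 of the 47 (59.6%) had a mean under 10 TPM, against 50.8% of all genes tested. The order from the lowest began with Setd1b (0.317 ± 0.116 TPM), Setd1a (0.387 ± 0.0551) and Kmt2d (0.410 ± 0.0346), whose SDs overlap, and ended with Chd9 (101 ± 9.50), Kmt2e (107 ± 5.38), which likewise do not differ beyond their spread, and Hdac1 far above. In sgElovl1 cells Setd1b was again the lowest at 0.457 ± 0.0351 TPM, and Setd1a at 0.947 ± 0.367, Kmt2b at 1.28 ± 0.547 and Kmt2d at 1.31 ± 0.503 followed with overlapping SDs.

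Many members have long transcripts, and among non-members the median log2 fold change was higher in the longest transcripts than in the rest. The deposited tables give each gene a transcript length, weighted by the abundance of its isoforms. Its median was 3536 bases over the 47 genes and 2164 over the other genes tested, and 26 of the 47 (55.3%) fell in the 2 longest of 10 length bins with equal numbers of genes. Among non-members the median log2 fold change ran from -0.19 in the third bin to 0.37 in the longest, where 22.3% were called higher and 0.89% lower. Of the 19 members in that bin, 10 (52.6%) were called higher, with a median log2 fold change of 0.57 (22.8% of all genes of the bin were called higher). At the shares of non-members called in each bin, 6.94 members would be called higher and 1.31 lower, beside the 15 and 0 that were. Each member was then set against the non-members of its own bin. The median of these differences was 0.22, 35 of the 47 were above the non-member median, 18 were above the upper quartile and 3 were below the lower quartile. The share of counts in genes of the longest bin was 3.37 to 3.79% in sgElovl1 and 2.67 to 2.85% in sgNT libraries, so that the groups did not overlap in this measure, and its part in the members' differences was not tested. Over the 47 genes the log2 fold change had a Spearman correlation of 0.43 with length, as a description, since the genes share their 6 libraries.

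**Figure D3:**
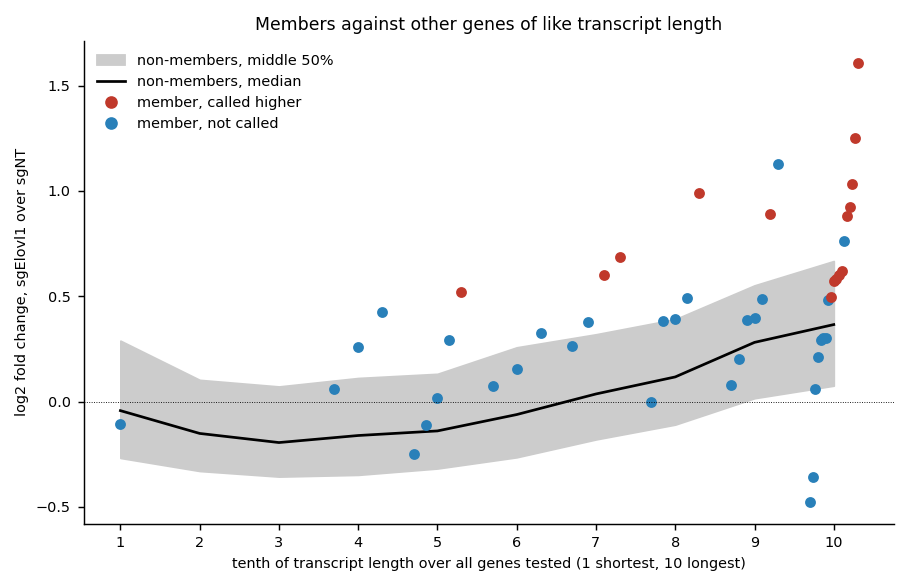
Log2 fold change of sgElovl1 over sgNT (vertical axis) against the bin of transcript length (horizontal axis, 1 shortest to 10 longest). The black line and grey band are the median and middle 50% of genes that are not members, and points are the 47 members, spread sideways by value within a bin for legibility, in red where called higher. The line climbs from -0.19 in the third bin to 0.37 in the longest, and 35 of the 47 points lie above it.

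When the trend with length was removed within each library by an offset, fewer members were called higher and some were called lower. With the offset, 7 members were called higher (4.73% of all genes) and 2 lower (7.15% of all genes), and the median log2 fold change was 0.15 over the members and -0.11 over all genes tested. The 7 were Kmt2d (0.88, edgeR adjusted p = 0.0156), Ash1l (0.79, 0.0114), Ep300 (0.52, 0.0424), Chd1 (0.48, 0.039), Chd2 (0.58, 0.0423), Chd7 (0.73, 0.0066) and Atrx (0.53, 0.0187), all of them also called without it. Atrx, with a length of 2034 bases near the middle of all genes, barely moved. That length is the isoform-weighted estimate, while all annotated exons of Atrx joined cover 21757 bases. Chd7, Chd2 and Chd1 also had estimates far below their joined exons (3269, 2533 and 2599 against 13786, 14300 and 8721 bases). For Ep300 they were 6631 and 14273, for Ash1l 10197 and 14838 and for Kmt2d 19814 and 19931 bases. An offset on exon length was not tested. The other 8 called genes kept a positive value but no call: Kmt2a (0.41, adjusted p = 0.135), Kmt2c (0.64, 0.0804), Setd2 (0.18, 0.403), Kat6a (0.15, 0.519), Smarca2 (0.21, 0.294), Tet2 (0.52, 0.071), Dnmt1 (0.10, 0.657) and Kdm5a (0.19, 0.316). The 2 called lower were Kmt2b (-0.89, 0.0252) and Arid1a (-0.80, 0.00488), whose transcripts are in the longest bin and had lain below their group of like length by 0.84 and 0.72. Thus the call of these 10 genes depended on whether length was taken into account.

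Related genes were compared within each library, where depth and scaling cancel. The 16 pairs of close relatives among the members were chosen after the values had been seen and were not tested. In 4 pairs (25%) the log2 ratio did not overlap between the groups. Of single genes 19.4% did not overlap with sgElovl1 above and 17.7% with sgElovl1 below, so the number of such pairs is no result about the pairs, and their values are given as a description. Kmt2a over Kmt2b was 2.49, 2.53 and 2.35 in sgElovl1 and 1.66, 0.86 and 0.74 in sgNT libraries, a difference of 1.37 between means. Ep300 over Crebbp was 0.12, 0.35 and 0.51 against -0.22, -0.57 and -0.50, so that the ratio of counts, which is not corrected for length, was above 0 in every sgElovl1 library and below 0 in every sgNT library. Arid1b over Arid1a, alternative subunits of the same complex, was -1.27, -1.18 and -1.81 against -2.01, -2.41 and -1.92, where sgElovl1 replicate 3 came close to the sgNT libraries. Chd7 over Chd8 was 3.11, 3.46 and 3.10 against 2.97, 2.54 and 2.63. The other 12 overlapped, with differences between means from -0.45 for Kmt2c over Kmt2d to 0.31 for Chd4 over Chd3. In the pairs Kmt2a with Kmt2b and Arid1b with Arid1a the genes differ in length (9599 and 6045 bases, 3321 and 7777 bases). Ep300 and Crebbp are of more similar length (6631 and 7940 bases).

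**Figure D4:**
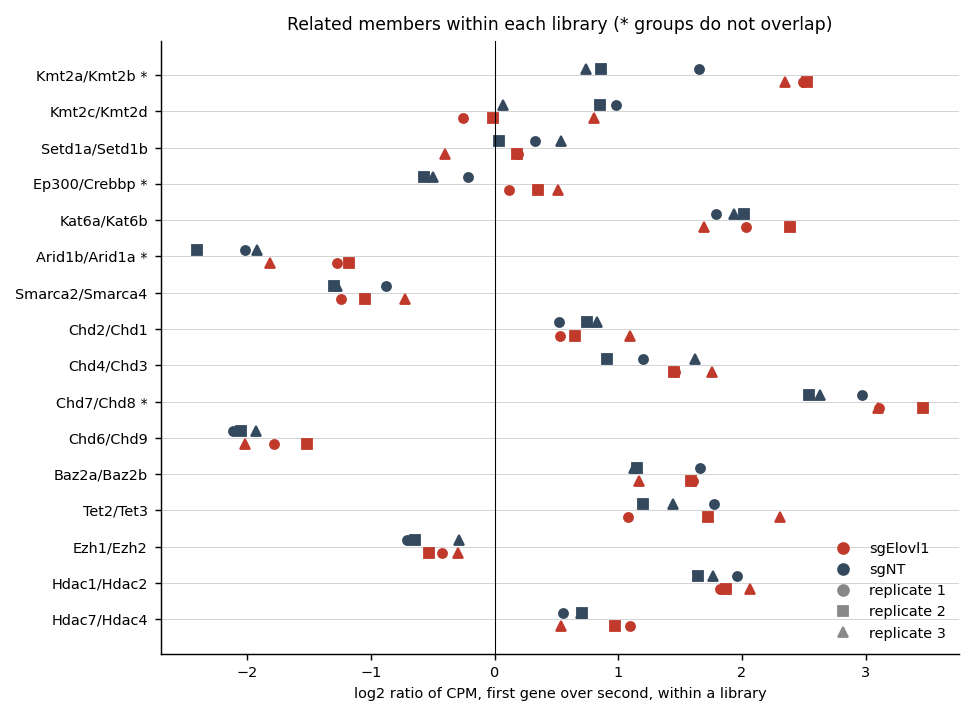
Log2 ratio of CPM of the first over the second gene (horizontal axis) for 16 pairs of related members in each library, red for sgElovl1 and dark for sgNT, with symbols for replicates 1 to 3. In the 4 pairs with a star, all sgElovl1 ratios lie right of all sgNT ratios.

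The deposited transcript length is itself a readout of isoform use that the counts do not hold, and it was not tested. It was longer in every sgElovl1 library than in any sgNT library for 6 members (12.8%, against 8.04% of all genes) and shorter for 7 (14.9%, against 8.91%). Most of these differences were small. In 4 members (8.51%, against 0.917% of all genes) the group means also differed by more than 0.5 on the log2 scale, a limit set after the values were seen. Setd1a was at 2658, 2713 and 2741 bases in sgElovl1 and at 6024, 5079 and 6022 bases in sgNT libraries, but its 28 to 72 counts a library make such an estimate weak, and its exons overlap another gene on the same strand. Tet3 was also shorter in sgElovl1, at 4456, 6187 and 4608 against 8346, 9253 and 8602 bases, with 194 to 524 counts. Setd2 was longer, at 6871, 6939 and 5342 against 4519, 3094 and 3903 bases, and Smarca2 was longer, at 5255, 5132 and 5121 against 3881, 3407 and 3389 bases.

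These lengths enter TPM and so alter the result by gene. Tet3, which was not called on counts, was at 3.22 ± 1.60 TPM in sgElovl1 and 0.993 ± 0.111 TPM in sgNT (SD, n = 3; limma adjusted p = 0.0312 on log2(TPM + 1)). Setd2, called higher on counts, was at 3.33 ± 0.265 and 3.78 ± 1.03 TPM, and Smarca2 at 5.55 ± 0.694 and 5.21 ± 0.271 TPM, and neither was called on TPM (limma adjusted p = 0.713 and 0.799). Of the other 13 genes called on counts, Kat6a, Chd2, Tet2 and Dnmt1 were not called on TPM either (limma adjusted p = 0.106, 0.0617, 0.0833 and 0.0762), while Kmt2e, Baz2a and Suz12 were, like Tet3, called on TPM and not by edgeR on counts (limma adjusted p = 0.0449, 0.0488 and 0.0383). In all, 13 members were called higher and 0 lower on TPM, against 7.36% and 1.29% of all genes. More reads fell on Setd2 and Smarca2 in sgElovl1 cells, while their TPM did not pass the test.

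**Figure D5:**
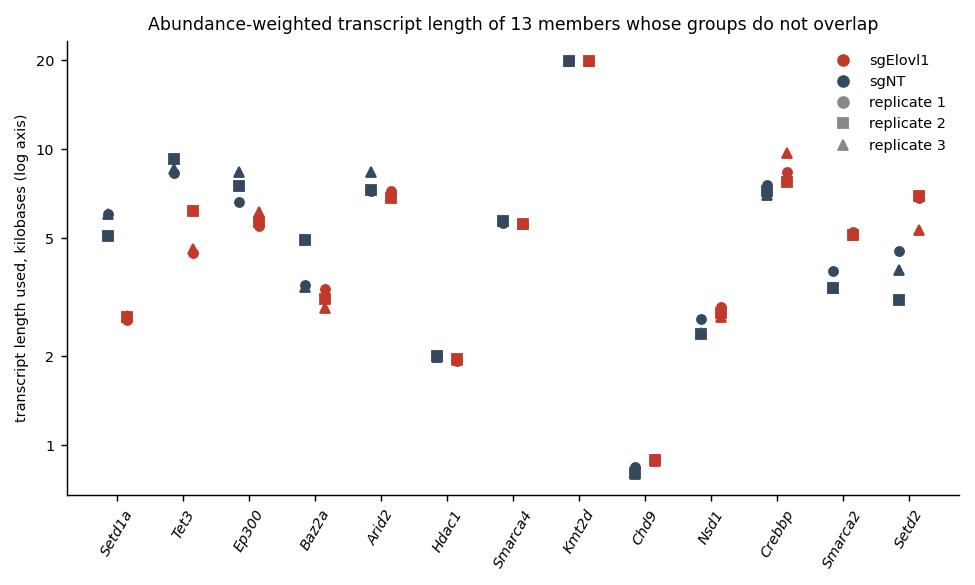
Abundance-weighted transcript length in kilobases (vertical log axis) in each library for the 13 members whose groups did not overlap, ordered from shorter to longer in sgElovl1 (red) relative to sgNT (dark). Setd1a and Tet3 at the left and Smarca2 and Setd2 at the right are the 4 whose group means differed by more than 0.5 log2, and among the others the groups are nearest in Kmt2d, Smarca4 and Hdac1.

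Partner genes of the same complexes and enzyme classes were called in a smaller share than the members, a difference that was not tested. The shares of members and partners were not compared at like transcript length. Among non-members, which include the partners, the share called higher ran from 3.19% in the third length bin to 22.3% in the longest. The part of length in the smaller share of partners was not tested. Of 138 further subunits and enzymes in 10 classes, 134 were tested, 20 (14.9%) were called higher and 6 (4.48%) lower, with a median log2 fold change of 0.15, beside 8.64% and 5.13% of all genes. The histone demethylase partners had 6 of 13 higher and 0 lower, led by Kdm2b, an H3K36 demethylase (log2 fold change 1.10, SE 0.18, edgeR adjusted p = 0.00413), and Kdm5c, a relative of Kdm5a (0.96, SE 0.15, 0.00413). Kdm6a, which sits in the complexes of Kmt2c and Kmt2d, was also higher (0.81, SE 0.14, 0.006), the only 1 of the 10 partners of the H3K4 methyltransferases to be called, while Paxip1 of the same complexes had 0.42 (0.0507). The core SWI/SNF subunits Smarcc1 and Smarcc2 were higher (0.64 and 0.65, 0.00517 and 0.0082), and 3 of the 16 tested in that class were higher and 1 lower. In the acetyltransferase class 1 of 11 was higher, the scaffold Brd1 (0.78, 0.0236), and Kat2a was at 0.41 (0.0646).

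Among remodellers and repressors the directions were mixed. Ep400, an ATPase of the TIP60 complex, was higher (0.88, SE 0.15, edgeR adjusted p = 0.00473), the single called gene of 9 tested ISWI and INO80 genes, and its relative Srcap was at 0.63 (0.0546). Of 9 NuRD subunits 0 were higher and 1 was lower, the methyl-CpG binding protein Mbd2 (-0.56, SE 0.12, 0.0125), and Mta3 was at -0.30 (0.101). Asxl2 and Asxl1, which work with the deubiquitinase Bap1, were the 2 genes called higher of 20 Polycomb genes (0.80 and 0.65, 0.0121 and 0.0353), beside 1 lower. Of 22 tested deacetylase and corepressor partners 4 were higher and 3 lower, with Sap130 (1.07, 0.00443) and Rcor1 (0.57, 0.00723) leading. The other methyltransferases had 2 of 17 higher, Ehmt1 (0.45, 0.0321) and Nsd3 (0.48, 0.0408). No DNA methylation partner of 7 was called, with Uhrf1, which guides Dnmt1, at 0.44 (0.0562). With the length offset 8 partners were called higher and 5 lower, beside 4.73% and 7.15% of all genes. Without sgElovl1 replicate 1, sgElovl1 replicate 2 or sgNT replicate 2, 7, 6 and 8 partners were called higher (2.95%, 2.15% and 2.55% of all genes) and 0 lower. Without sgElovl1 replicate 3 the counts were 31 and 8, for which no share of all genes is given here. Of the 26 called partners, Smarcc1, Ep400, Kdm2b, Kdm5c, Sap130 and Rcor1 passed whichever single library was left out.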

How the data were processed

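Bulk RNA was measured in 6 libraries, grouped by their sample titles. RNA was extracted with TRIzol, pre-amplified (SMARTer) and sequenced from a strand-specific mRNA library. Per the submitters' processing notes, the authors used mm10, STAR 2.7.7a, RSEM 1.3.1 and DESeq2 1.36.0. The strand setting and annotation release are not given in the sources used here. The deposited expected counts (RSEM's estimated read pairs per gene, not scaled between libraries) were rounded and used for all tests. The deposited TPM, which the authors scaled by transcript length and library, gave levels per length and 1 alternative, and the deposited length column (bases, weighted by isoform abundance) gave the length comparisons. Symbols came from GENCODE M21, which gave all 47 members, and promoter windows from RefSeq.

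Groups were compared in edgeR 4.0.16 (R 4.3.3), with the filter of filterByExpr at a minimum count of 10, TMM scaling, robust quasi-likelihood fits with group as the only term, two-sided tests and Benjamini-Hochberg adjustment over 12546 genes. CPM are TMM-scaled. The SE is the log2 fold change divided by the root of the F statistic. The biological coefficient of variation was 0.22. P-values measure the spread between these samples, and n = 3 per group limits them. The libraries are not equal units of spread, since sgElovl1 replicates 1 and 2 hold 2 tumours each and the others hold 1. The fits were tested on simulated data. Members, roles, partner and marker lists were chosen with earlier results of these data known. Full values are given for the 2 members of each role with the smallest p, for members called lower and for members called higher without overlap at 0.8 log2 or more, and of the partners for the 2 with the smallest p per class. Kmt2b, Arid1a, Chd2, the pairs of relatives and the genes with different transcript lengths were singled out after their values were seen.

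Alternatives were DESeq2 1.42.0, limma 3.58.1 (voom, and log2(TPM + 1)), RLE size factors, no filter, a length offset (loess of each library's log2 deviation on log2 length, span 0.3), the replicate number as a block, each library left out, the third libraries left out, and 20 length bins in place of 10. Same-numbered libraries of the groups deviated together (correlations of 0.212, 0.245 and 0.405 over all genes tested), so the numbers were taken as pairs, although the labels tie no number to a shared mouse or day. The value of 1 partner gene that the naming rule selects is not reported here.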

Additional observations from a re-analysis of the deposited data

How the results depend on the processing

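The median log2 fold change of the 47 genes stayed positive under every alternative and moved by more than the spread between libraries only with the length offset (0.15 in place of 0.39). Without single libraries the count of members called higher ran from 4 to 21 and of those called lower stayed at 0. Of all genes, 2.15% were called higher where 4 members were. The 21 came without sgElovl1 replicate 3, for which no share of all genes is given here, so it is no result about the members. The length offset gave 7 higher and 2 lower (4.73% and 7.15% of all genes). Leaving out the third library of both groups gave 21 and 1 (15.4% and 16.1% of all genes). With the replicate block 14 members were called higher and Kat6a alone lost its call, and no other member's call changed. With it 22 partners were higher and 4 lower, and no share of all genes is given here for the block.

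The median difference from non-members of like length was 0.22, and 0.17 with DESeq2 (0.167) and without the filter (0.168), 0.27 on TPM and 0.18 to 0.30 without single libraries. Partner calls were 20 higher and 6 lower, and 13 and 2 on TPM (7.36% and 1.29% of all genes). They were 8 higher with the length offset (4.73%) and 38 and 23 without the third libraries (15.4% and 16.1%). Without single libraries they were 6 to 31 higher and 0 to 8 lower. Of all genes, 2.15% were called higher where 6 partners were. For the 31 and 8 no share of all genes is given here, so that range is no result about the partners.

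Some values changed sign, among them that of Setd2, which was called higher on counts (0.57). With the length offset the changed ones were Setd1a (-0.33), Setd1b (-0.10), Crebbp (-0.24), Arid2 (-0.13), Chd4 (-0.11), Ezh1 (-0.11) and Hdac4 (-0.20). On TPM they were Kmt2b (0.034) and Setd2 (-0.12), without the filter Chd3 (0.017), and without the third libraries Chd3 (0.072), Baz1a (-0.27) and Arid4a (-0.15). Without single libraries Setd1a ran from -0.16 to 0.32, Crebbp from -0.058 to 0.37, Chd3 from -0.21 to 0.21, Baz1a from -0.17 to 0.18 and Arid4a from -0.078 to 0.17. Apart from the length offset, which removes a trend by construction, and leave-outs, which remove samples, the cause of these changes was not tested. Low counts limit Setd1a, Setd1b and Kat6b most.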
